A study of Drosophila melanogaster with 6 samples.

Results

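The potassium channel genes Sh, Shab, Shal, Shaw, eag, Elk, sei, KCNQ, slo and SK of Drosophila melanogaster were followed in RNA recovered with the zinc finger RNA-binding protein Zn72D from adult heads. The 10 genes were chosen by their FlyBase symbols, out of 17453 genes in the tables. All 10 had counts in every library and passed the filter on low counts that left 11670 genes for testing. The flies were adults of pooled sexes, raised at 25 degrees C, and their age is not given in the sources used here. Their genotype, y1 w*; P{PTT-GA}Zn72D[CA07703], carries a protein trap that joins GFP to Zn72D. Both groups come from such flies: 3 RNA immunoprecipitates made with an antibody against GFP (RIP) and 3 inputs, which are small parts of the head lysate. Both went through the same removal of ribosomal RNA by antisense oligonucleotides. No precipitate from untagged flies was analysed here, so a high value in RIP is high relative to input and is not set against what the beads or the antibody alone recover. Whether each replicate was a separate collection of flies is not given in the labels; the p-values therefore reflect the spread over these libraries only, and that spread may be technical.

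Potassium channels let potassium leave the cell and so repolarize neurons and muscles after an action potential. In most of the channels described here several subunits together form the pore, and a charged helix in each subunit senses the membrane voltage. Sh and eag were first found in flies whose legs shake under ether. The transcripts of Sh, Shab, eag and slo are known substrates of RNA editing by Adar, an enzyme with which Zn72D is known to act. The SK channel is opened by calcium and not by voltage, so the name voltage-gated does not hold for it in the strict sense.

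The libraries held 28070655 to 38331703 expected counts. Ribosomal RNA took 78.1% to 83.0% of the input counts and 4.73% to 9.39% of the RIP counts, so the 10 genes were counted more deeply in RIP. Together they had 13777, 19829 and 19385 counts in input and 182751, 185977 and 127478 in RIP. Of all counts outside ribosomal RNA they made up 0.235% to 0.253% in input and 0.501% to 0.526% in RIP. For comparison between groups, counts were expressed as CPM, a count scaled to a fixed library size, after library sizes were multiplied by TMM factors. Folds are thus set against most other genes. The median log2 fold change of all tested genes was 0.06. Over all genes, replicate 3 deviated from the other replicates in a similar way in input and RIP, as described with the processing. Some channel genes departed from this, as given below.

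Of the 10 channel genes, 9 were higher in RIP than in input and none was lower (edgeR quasi-likelihood test, adjusted p under 0.05). Among all tested genes 20.2% were called higher and 17.0% lower, which is 2362 and 1989 genes. That split moved with the scaling: it was 1825 higher and 2488 lower when ribosomal RNA genes were left out (median of all genes -0.09), 9386 and 173 with library size alone (median 1.90), and 11296 and 25 in log2(TPM + 1) (median 2.54). The median log2 fold change of the 10 genes was 1.25. In the same 9 genes the 3 RIP values lay above the 3 input values, which was the case for 26.5% of all tested genes. Sh, SK, eag, slo, Shab and Shaw were at least 2-fold higher and called, as were 5.90% of all tested genes. Only sei, of the 10, did not pass the test in either direction. Summed over the 10 genes the values ran from 837 to 998 CPM in input and from 2404 to 2680.4 CPM in RIP.

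**Figure D1:**
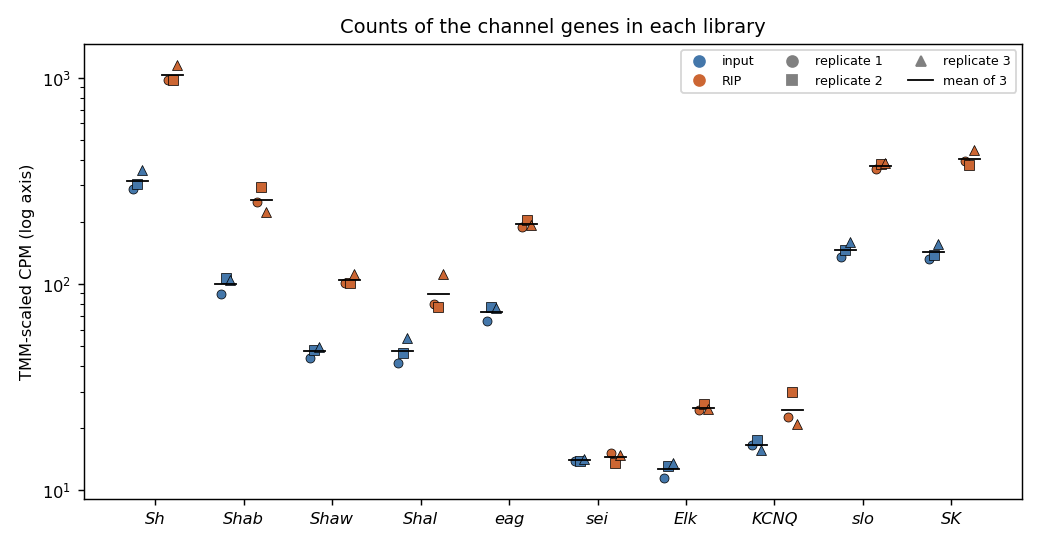
TMM-scaled CPM of each channel gene (log axis) in 3 input and 3 RIP libraries, with 1 point per library, its shape giving the replicate number, and a line at the mean of 3. RIP points lie above input points for 9 genes, and those of sei lie at 13.5 to 15.1 CPM in RIP and 13.9 to 14.2 in input.

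The Shaker class holds the classical voltage-gated channels of Sh, Shab, Shaw and Shal. Sh encodes the Shaker channel, which carries a fast, inactivating current in axons and nerve terminals. It lies on the minus strand of dm6 chromosome X (17924307 to 18063247; FBgn0003380) and had the highest counts and the highest fold of the 10 genes. Sh had 287, 306 and 355 CPM in input replicates 1 to 3 and 972, 970.4 and 1155 in RIP. The lowest RIP value was well above the highest input value, and replicate 3 was the highest of its group on both sides. The mean rose from 316 ± 34.9 to 1032 ± 106 CPM (SD, n = 3), a fold change of 3.27 (log2 1.71 ± 0.13, SE; edgeR adjusted p = 0.000468). Only 0.763% of all tested genes had a higher fold.

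Shab encodes the main delayed rectifier, a slowly inactivating channel of neurons and muscle. It lies on chromosome 3L (2895017 to 2959579, plus strand; FBgn0262593). Its values were 89.6, 107 and 105 CPM in input and 250, 295 and 222 in RIP, a mean 2.55-fold higher (log2 1.35 ± 0.14; edgeR adjusted p = 0.000944). The groups did not overlap, but here RIP replicate 3 was the lowest of its group, unlike in Sh. Between same-numbered libraries the log2 ratio was 1.48, 1.47 and 1.09.

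Shaw encodes a channel that opens over a wide voltage range and inactivates little (2L, 3718185 to 3729145, plus strand; FBgn0003386). It had 43.8, 47.9 and 49.3 CPM in input and 101, 101 and 112 in RIP. The libraries of a group lay close together and far from the other group, and the fold change was 2.23 (log2 1.16 ± 0.09; edgeR adjusted p = 0.000431). Shal encodes the fast inactivating channel of cell bodies and dendrites (3L, 19566851 to 19584568, minus strand; FBgn0005564). Its values were 41.4, 46.4 and 54.4 CPM in input and 79.7, 77.4 and 112 in RIP. They did not overlap between the groups, although RIP replicate 3 stood apart from the other RIP libraries by 0.51 on the log2 scale and input replicate 3 by 0.31 from the other inputs. The fold change of Shal was 1.89 (log2 0.92 ± 0.18; edgeR adjusted p = 0.00922). Without RIP replicate 3 it was log2 0.62 (edgeR adjusted p = 0.00423).

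The ether-a-go-go class has 3 genes in flies, and these differed most among themselves. eag, the founding gene, encodes a slowly opening channel of neurons (X, 14955477 to 15009989, plus strand; FBgn0000535). It had 66.2, 77.1 and 76.8 CPM in input and 188, 205 and 192 in RIP. The RIP values lay within a narrow range far above the input values, and eag rose 2.66-fold (log2 1.41 ± 0.09; edgeR adjusted p = 0.000358). Elk, the eag-like gene, lies on 2R (17873939 to 17926695, plus strand; FBgn0011589). Its counts were low, 11.4, 13.1 and 13.5 CPM in input and 24.5, 26.0 and 24.7 in RIP. The groups were again separate and Elk rose 1.98-fold (log2 0.98 ± 0.10; edgeR adjusted p = 0.000951).

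sei, the seizure gene, encodes the channel related to human ERG and is known for the paralysis of its mutants at high temperature (2R, 24047411 to 24053035, plus strand; FBgn0003353). Its values were 13.9, 13.9 and 14.2 CPM in input and 15.1, 13.5 and 14.8 in RIP. One RIP library lay below all inputs and the others lay above them. The log2 fold change was 0.05 ± 0.09 (95% interval -0.18 to 0.28; edgeR adjusted p = 0.728), an interval that lies below those of the other 9 genes except KCNQ. sei was called higher under library size alone (log2 1.89) and in log2(TPM + 1) (3.02), the scales on which the medians of all genes were 1.90 and 2.54. Of all tested genes 50.5% had a higher fold than sei. Elk and sei had similar CPM in input.

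KCNQ encodes the channel behind the slow M-type current of neurons (2R, 10145897 to 10192394, minus strand; FBgn0033494). It had 16.5, 17.4 and 15.7 CPM in input and 22.5, 29.9 and 20.9 in RIP. All RIP values were above all input values, with replicate 2 the highest on both sides. KCNQ rose 1.48-fold (log2 0.57 ± 0.15; edgeR adjusted p = 0.0292). This was the least stable call: it ended in 10 of 20 alternatives, among them all 6 fits without 1 library (edgeR adjusted p = 0.0518 to 0.116). Over all 20 its adjusted p ran from 3.55e-06 to 0.419 (the fits were by edgeR, DESeq2 and limma).

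The pair of calcium-activated genes lay close together. slo encodes the Slowpoke channel, which opens with both voltage and calcium and shapes the action potential in neurons and muscle (3R, 24662491 to 24711595, plus strand; FBgn0003429). It had 135, 146 and 159 CPM in input and 359, 379 and 383 in RIP. The groups were far apart and slo rose 2.55-fold (log2 1.35 ± 0.10; edgeR adjusted p = 0.000375). SK encodes the small-conductance channel, whose calcium sensor is bound calmodulin (X, 5340236 to 5405138, plus strand; FBgn0029761). It had 133, 138 and 156 CPM in input and 392, 377 and 444 in RIP. Replicate 3 was highest in both groups, and SK rose 2.85-fold (log2 1.51 ± 0.11; edgeR adjusted p = 0.000412), the second highest fold of the 10 genes. Differences in fold between the channel genes were not tested.

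The 10 genes were also described by features that are no part of the rule by symbol. Their span, exon share and chromosome were not set against those of all genes. Of the 10 genes 7 span more than 40000 bases of genome. Exons cover 8.33% of the span in KCNQ to 58.3% in sei, the shortest of the 10 genes. The mean transcript length was 2798 to 8528 bases, against a median of 1822 over all tested genes. Chromosome X holds 3 of them (Sh, eag, SK), 2R holds 3 (Elk, sei, KCNQ), and 3L holds Shab and Shal. Exons of sei overlap those of ppk29 and gammaSnap1 on the other strand by 119 and 359 bases, and exons of KCNQ overlap those of CG18011 and asRNA:CR45133 by 265 and 798 bases. For all 10 genes in all 6 libraries the deposited posterior standard deviation of the count was 0, so RSEM divided no read between one of them and another gene. The strand setting of the counting is not given in the sources used here.

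The fold change moved with transcript length, both over all genes and among the channels. Across the 11670 tested genes Spearman's rho between length and log2 fold change was 0.64, and across the 10 channel genes it was 0.95, a description over genes that share the same libraries. The shortest transcripts were those of sei (mean 2798 bases), KCNQ (2996) and Shal (3622), which also had the 3 lowest log2 fold changes. The longest were those of eag (8528 bases) and Sh (8125). The smoothed trend over all genes stood at a log2 fold change of 0.81 at the length of Sh, whose own value was 1.71. At the length of SK it stood at 0.75 against 1.51, and at that of slo at 0.75 against 1.35. For Shab the values were 0.72 and 1.35, for Shaw 0.53 and 1.16, and for eag 0.82 and 1.41. Thus 9 genes lay above the trend, by 0.19 (KCNQ) to 0.90 (Sh), and sei lay below it by 0.28, with a trend value of 0.33. Elk and Shal lay 0.31 and 0.42 above it. Across the 10 genes Spearman's rho between length and the distance above the trend was still 0.72.

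**Figure D2:**
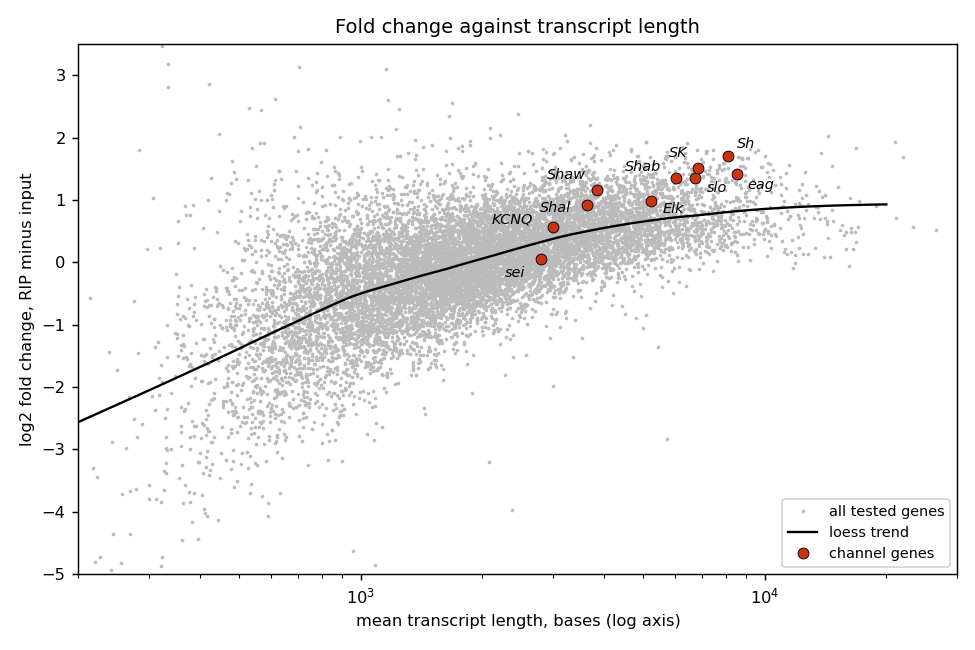
Log2 fold change of RIP minus input against mean transcript length in bases (log axis) for all tested genes (grey), the 10 channel genes (red) and the loess trend over all genes (line). 90 genes lie outside the axes, and 9 channel genes lie above the line and sei below it.

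A fit that removed the length trend from each library gave smaller folds. In it 7 of the 10 genes were still called higher and none lower, where 10.2% of all tested genes were called higher and 10.6% lower. The median of the 10 genes was 0.59 and that of all genes 0.05. Sh stood at log2 0.89 ± 0.09 (edgeR adjusted p = 0.0044) and SK at 0.75 ± 0.08 (edgeR adjusted p = 0.0044). Shaw, Shab, slo and eag stood at 0.58 to 0.63 and Elk at 0.31 ± 0.08 (edgeR adjusted p = 0.0429). Shal (0.44 ± 0.16, edgeR adjusted p = 0.101) and KCNQ (0.22 ± 0.16, edgeR adjusted p = 0.419) no longer passed. With the replicate number as a block as well, 8 genes were called higher, Shal among them (log2 0.42, edgeR adjusted p = 0.00208), and 27.1% of all genes were. sei was then called lower (log2 -0.24, edgeR adjusted p = 0.0288), as were 2705 of all 11670 tested genes. The adjusted p of sei in the 20 alternatives, by edgeR, DESeq2 and limma, went from 2.34e-06 to 0.975. The part of length in these values was not tested.

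**Figure D3:**
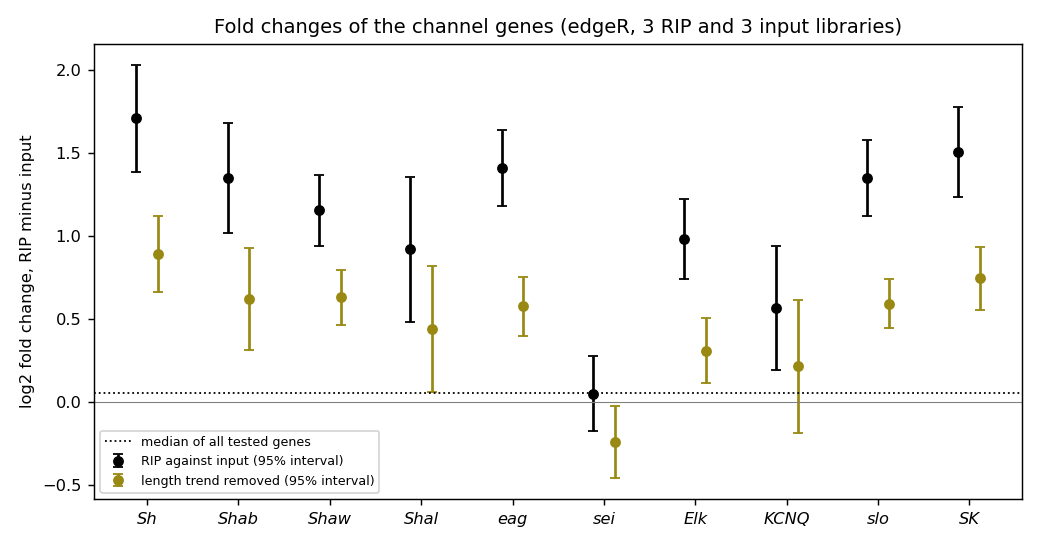
Log2 fold change of RIP minus input for each channel gene with its 95% interval, as tested (black) and with the length trend removed (ochre); the dotted line is the median of all tested genes, 0.06. As tested, 9 intervals lie above 0; with the trend removed the interval of KCNQ includes 0 and that of sei lies below 0.

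Levels of different genes were compared as TMM-scaled CPM per kilobase of effective transcript length. In bulk heads fewer cells that express a gene and less RNA per cell cannot be told apart. In input Sh was the highest, at 40.4 ± 4.92 CPM per kilobase (SD, n = 3), followed by slo (23.4 ± 1.95), SK (22.3 ± 2.15), Shab (16.9 ± 1.71), Shal (14.4 ± 1.81) and Shaw (12.9 ± 0.854). The lower end was made up of eag (8.84 ± 0.734), KCNQ (5.87 ± 0.311), sei (5.28 ± 0.109) and Elk (2.50 ± 0.217). The ranges of slo and SK overlapped, as did those of Shab and Shal and of Shal and Shaw, so these neighbours were not separated by their spread. The other neighbours did not overlap. The highest mean was 16.2 times the lowest. Across the 10 genes Spearman's rho between this level in input and the log2 fold change was 0.75. The part of the input level in the folds was not tested.

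In RIP the order was nearly the same, with Sh at 128 ± 14.9 CPM per kilobase and SK (58.6 ± 3.96) now before slo (55.3 ± 2.24). Shab stood at 44.4 ± 5.32, Shaw at 28.5 ± 1.28, Shal at 24.98 ± 4.54 and eag at 23.2 ± 1.29. The ranges of SK and slo, of Shaw and Shal, and of Shal and eag overlapped. KCNQ (8.70 ± 1.67), sei (5.63 ± 0.327) and Elk (4.96 ± 0.162) closed the order. Elk and sei, whose means in input differed by a factor of more than 2, were close to each other in RIP though their ranges did not overlap. The highest mean was 25.8 times the lowest.

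**Figure D4:**
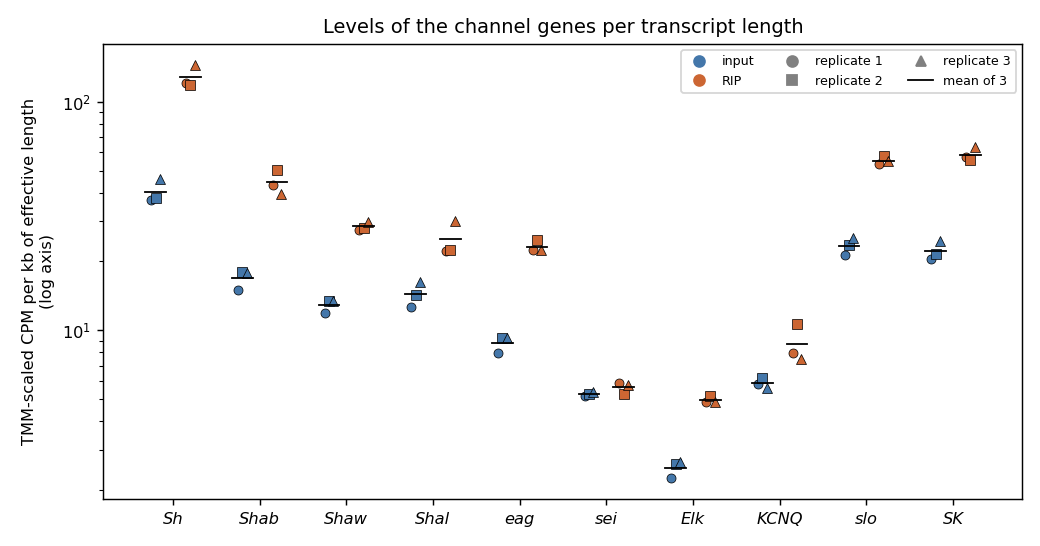
TMM-scaled CPM per kilobase of effective transcript length (log axis) for each channel gene in 3 input and 3 RIP libraries, 1 point per library with a line at the mean of 3. Sh is the highest in both groups, at 40.4 in input and 128 in RIP, and Elk the lowest, at 2.50 and 4.96.

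Replicate 3 moved the channel genes unequally. In input, replicate 3 was above the mean of replicates 1 and 2 by 0.31 on the log2 scale for Shal, by 0.26 for Sh and by 0.21 for SK, and below it only for KCNQ, at -0.11. In RIP it was above by 0.51 for Shal, 0.25 for Sh and 0.21 for SK. For KCNQ and Shab RIP replicate 3 was lower, at -0.31 and -0.29, while for eag and Elk it stood at -0.03 in both. Without both replicate 3 libraries 9 channel genes were still called higher, with a median of 1.10. In that fit 3015 of 12223 tested genes were called higher and 3498 lower, and the median of all genes was -0.04. With the replicate number as a block, the same 9 genes were called higher, as were 32.7% of all genes. A block takes up shifts that input and RIP share. It does not take up those that differ, as for Shab (0.10 in input and -0.29 in RIP).

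The data also give each gene's mean transcript length, weighted by the estimated share of its isoforms. A difference in this length is a difference in the estimated isoform mix and not a direct count of isoforms. The files list 92 transcripts for the 10 genes, from 2 for Elk to 23 for slo. SK and slo had longer transcripts in RIP than in input. In the inputs the mean length of SK was 6616, 6560 and 6494 bases, and in the RIP libraries it was 7021, 7006 and 7244 bases. That of slo was 6494, 6390 and 6452 bases in the inputs and rose to 6957, 6780 and 7162 in the RIP libraries. In both the RIP values lay above the input values, by 534 and 521 bases on average. The increases were 8.13% for SK (log2 0.11 ± 0.02; limma adjusted p = 0.0162) and 8.06% for slo (log2 0.11 ± 0.02; limma adjusted p = 0.0337). In this test 12.4% of 5920 genes were called longer in RIP and 3.26% shorter.

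These calls were not stable. With the replicate number as a block neither passed (limma adjusted p = 0.0822 for SK and 0.0707 for slo), where 4.14% of genes were called longer and 0.473% shorter. Without 1 library the adjusted p ran from 0.0258 to 0.0615 for SK and from 0.033 to 0.119 for slo. Shal had 3451, 3430.1 and 3515 bases in the inputs against 3765, 3653 and 3916 in the RIP libraries, the largest increase at 8.98%, and missed the threshold (limma adjusted p = 0.0504). The RIP lengths of eag, Elk and KCNQ also lay above the input lengths, by 128, 24.2 and 29.97 bases, so that 6 of the 10 genes showed no overlap in that direction, as did 26.8% of all genes in this test. sei was the only one of the 10 with RIP lengths below all input lengths, as were 11.6% of genes. None of these 4 passed, nor did Sh, Shab or Shaw, whose groups overlapped.

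**Figure D5:**
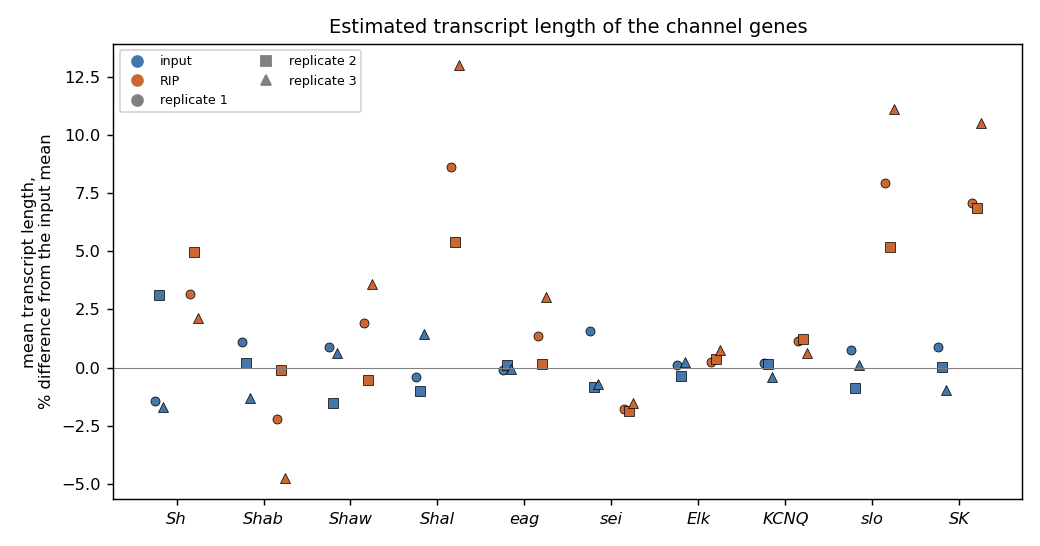
Mean transcript length of each channel gene in each library, as % difference from the mean of its 3 input libraries, with 1 point per library. SK, slo and Shal lie above the input in all 3 RIP libraries, most in replicate 3, with mean increases of 8.13%, 8.06% and 8.98%.

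The annotated isoforms of slo and SK fall into short and long ones. For slo, 21 transcripts are 4568 to 5120 bases long and 2 are 8130 and 8854 bases long. The long ones differ mainly in the 3' untranslated region, which has 3779 or more bases in them and 979 or fewer in the others. For SK, 11 transcripts have 3484 to 5179 bases and 3 have 8050 to 8828, with 3' untranslated regions of 3922 to 5441 bases in the long ones and at most 1789 in the others. The mean lengths of slo then allow a share of long isoforms of 34.0% to 54.1% in input and 44.5% to 72.8% in RIP, over the libraries of a group. For SK they allow 36.0% to 68.6% in input and 50.1% to 82.4% in RIP. The allowed ranges of the groups overlap, so the means alone do not fix the shares. RSEM weighs isoforms with the mean fragment length of the library. This was 172, 171 and 162 bases for the 3 inputs, and the RIP libraries had longer fragments, at 195, 195 and 207 bases. Its part in the transcript lengths was not tested. With each library's effective length in the fit of the counts, slo stood at log2 1.22 and SK at 1.37, and the same 9 genes were called.

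Genes for partners of these channels and for other potassium channels moved less uniformly. Of 14 genes for partners, leak channels and inward rectifiers, 8 rose and 2 fell (median log2 fold change 0.71). With the replicate block 10 were called higher and 2 lower, as were 3821 and 3230 of all 11670 tested genes. qvr, whose membrane-anchored product raises Shaker current, was the highest (log2 1.51 ± 0.13; edgeR adjusted p = 0.000622). Hk, the cytoplasmic beta subunit of Shaker, rose 2.30-fold (log2 1.20 ± 0.19; edgeR adjusted p = 0.00391), and dlg1, a scaffold that clusters Shaker at synapses, rose 1.91-fold (log2 0.94 ± 0.12; edgeR adjusted p = 0.00172). Slob, which binds the Slowpoke channel, rose 1.48-fold (log2 0.56 ± 0.11; edgeR adjusted p = 0.00784), and with effective length in the fit it stood at 0.23 (edgeR adjusted p = 0.188). Cam, calmodulin, had 1227 CPM in input and 2247 in RIP, with a wide spread (log2 0.87 ± 0.33; edgeR adjusted p = 0.0843). With the replicate block Cam was called higher (log2 0.85; edgeR adjusted p = 3.33e-07), as was the leak channel gene Ork1 (log2 0.37; edgeR adjusted p = 0.00501).

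The inward rectifier genes Irk2, the lowest of the list, and Irk3 fell by 0.65 and 0.59 on the log2 scale (edgeR adjusted p = 0.0414 and 0.0173). The call of Irk2 was lost with RLE scaling (edgeR adjusted p = 0.0574). Under library size alone both stood above 0 (1.19 and 1.26), below the median of all genes there, 1.90. In log2(TPM + 1), where the median of all genes was 2.54, Irk2 stood at 2.63, above it, and Irk3 at 2.33. Irk1, the third inward rectifier, had a positive log2 fold change of 0.54 ± 0.15 (edgeR adjusted p = 0.0287), a call lost with RLE scaling (edgeR adjusted p = 0.0584) and without ribosomal RNA genes (0.0634). With the length trend removed 5 of the 14 genes were called higher and 0 lower, where 10.2% and 10.6% of all tested genes were. In that fit Irk2 stood at -0.58 (edgeR adjusted p = 0.0816) and Irk3 at -0.33 (0.115). With the replicate block as well, 7 of the 14 were called higher. Irk2 and Irk3 were then called lower (edgeR adjusted p = 5.7e-05 and 0.0485), and of all genes 3167 were called higher and 2705 lower.

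All 12 genes of a second list, sodium, calcium and other cation channels with their subunits, rose (median log2 fold change 1.01). cac, the calcium channel of synaptic release, was the highest (log2 1.53 ± 0.10; edgeR adjusted p = 0.000322). unc79, a subunit of the sodium leak channel complex, was the lowest (log2 0.48 ± 0.13; edgeR adjusted p = 0.0302). Without ribosomal RNA genes 10 of the 12 were called, not unc79 (edgeR adjusted p = 0.101) and unc80 (0.0589), and with effective length in the fit 11 were, not the cation channel gene Ih (0.0788). With the length trend removed 4 of the 12 were called higher and 2, unc79 and unc80, lower, and their median was 0.17 beside 0.59 for the 10 potassium channel genes. That difference was not tested. As reference points, Adar stood at log2 1.59 ± 0.27 and the ribosomal protein gene RpL32 at -3.30 ± 0.14 in the same fit (RpL32 stood at 0.19 in log2(TPM + 1)).

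Markers of the cell types of the head moved differently between RIP and input. All 5 neuronal markers (elav, nSyb, brp, Syt1, fne) rose, with a median log2 fold change of 1.28. Their summed level was 1500 to 1954 CPM in input and 3632 to 5116 in RIP. Of 5 photoreceptor markers 2 fell (Arr2 and inaD), and the sum ran from 7775 to 8308 CPM in input and 5850 to 6728 in RIP. Of 5 muscle markers 3 fell (up, wupA, Mlc2), with sums of 3579 to 4091 CPM in input and 2538 to 2790 in RIP. None of 5 glial markers (sums 462 to 758 CPM in input, 417 to 624 in RIP) and none of 5 fat body markers (1861 to 4858 CPM and 2339 to 5407) passed. These falls are relative to the bulk of genes: under library size alone the medians of the photoreceptor and muscle markers were 1.13 and 0.65, both below that of all genes, 1.90, and in log2(TPM + 1) they were 2.64 and 2.20 beside 2.54. With the replicate block 3 photoreceptor and 4 muscle markers were called lower. Of the glial and of the fat body markers 1 each was then called higher and 2 each lower. With this block 3821 of all 11670 tested genes were called higher and 3230 lower. With the length trend removed 3 of the 5 neuronal markers were called higher, not brp (edgeR adjusted p = 0.135) and Syt1 (0.0678). In that fit 4 photoreceptor, 3 muscle and 1 glial marker were called lower, with Mhc in place of wupA among the muscle markers. No marker was at 0 in all libraries. The part of these differences in the values of the channel genes was not tested.

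The genes whose pattern over the 6 libraries was closest to the mean of the 10 channels were Helz, gce, aus, NFAT and stx, out of 5935 protein-coding genes with at least 5 CPM. The measure was the root mean square difference of centred log2 CPM, which was 0.02 to 0.03 for these 5. Among the channels themselves Shaw (0.05) and Elk (0.07) were nearest to the mean pattern, and sei (0.53), KCNQ (0.33) and Sh (0.32) were farthest. The log2 fold changes of the 5 genes were 1.04 (aus) to 1.12 (Helz). These values follow from the choice, because the pattern compared holds the difference between RIP and input. The mean lengths of the 5 genes were 5153 to 7660 bases.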

How the data were processed

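Per the submitters' processing notes, the build was dm6 and the tools were RSEM 1.2.30, STAR 2.5.4b, DESeq2 1.20.0 and Trim Galore 0.4.5. The deposited tables hold RSEM expected counts, TPM, transcript and effective lengths and the posterior standard deviation of the count, per the file headers. The deposited TPM includes ribosomal RNA in its total. The sources used here give neither the strand setting nor the annotation release.

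Symbols and coordinates came from Ensembl release 115 in dm6 coordinates: 17179 IDs matched directly, 197 through transcripts, and 77 had no symbol. Of 9736 single-transcript genes, 99.2% had the same length there within 0.5 bases. No sequence was printed, as none was given with the reference used here. Expected counts were rounded, filtered with filterByExpr, and TMM-scaled; the quasi-likelihood test of edgeR 4.0.16 (R 4.3.3) with a group term alone was run over 11670 genes, and p-values were adjusted after Benjamini and Hochberg, with a threshold of 0.05. The F statistic and the fold change gave the standard errors. Transcript length was tested with limma 3.58.1 on log2 length over the 5920 genes whose length varied within both groups. The length trend was removed with a loess curve per library (span 0.3) as an offset.

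Replicates differed by more than sampling noise (chi-square per degree of freedom 13.98 to 129). Same-numbered input and RIP libraries correlated in their deviations at 0.665, 0.604 and 0.848. Replicates 1 and 2 were not told apart (0.626 and 0.604 across numbers). The block, run as an alternative, took the numbers from the labels to pair the libraries. The main test did not use this pairing. Alternatives were other scalings (RLE, upper quartile, library size), DESeq2 1.42.0, limma-voom and TPM with pseudocounts of 1 and 0.1. Others were no filter, no ribosomal RNA genes, the block, the length trend and libraries left out. Effective length as an offset was added after the data were seen. So was the transcript length fit without both replicate 3 libraries. Named genes are the 10 channels, the highest and lowest of each list, direct partners, Adar, RpL32 and the 5 genes of most similar pattern; Irk1, Irk3, unc80, Ork1 and Ih were added after their values were seen. The rule for the members uses symbols and no values, but members and lists were chosen with earlier results of these data known.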

Additional observations from a re-analysis of the deposited data

How the results depend on the processing

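Of the 10 channel genes, Sh, Shab, Shaw, eag, Elk, slo and SK were called higher in all 20 alternatives, Shal in 19 (not with the length trend removed) and KCNQ in 10. The number called higher was 7 to 10 and never differed by more than 1.5 times. One gene, sei, was called lower with the length trend removed and the replicate block, as were 2705 of all 11670 tested genes. The replicate block changed none of the 10 calls, but moved the counts over all genes to 3821 higher and 3230 lower, from 2362 and 1989. They were 9386 and 173 with library size alone, 11296 and 25 in log2(TPM + 1), 11315 and 27 in log2(TPM + 0.1), 1825 and 2488 without ribosomal RNA genes, 1195 and 1240 after removal of the length trend, and 3015 and 3498 without both replicate 3 libraries. The cause was not tested beyond the scaling itself, which moved the median of all genes to 1.90, 2.54 and 3.25 under library size alone and in both TPM scales.

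The median of the channel genes was 1.14 with upper quartile scaling, 1.11 without ribosomal RNA genes, 3.09 with library size alone, 4.38 and 4.55 in TPM, 0.59 with the length trend removed with or without the replicate block, 1.10 without both replicate 3 libraries and 1.11 to 1.31 with 1 library left out. For sei the sign turned with upper quartile scaling (-0.066), without ribosomal RNA genes (-0.096), with the length trend removed (-0.24 and, with the replicate block, -0.24), without RIP replicate 3 (-0.084, the lowest with 1 library left out, where the highest was 0.082) and without both replicate 3 libraries (-0.12). The number of channel genes with longer transcripts, 2 as tested, was 0 with the replicate block, 4 with at least 200 mean counts in each group, 1 without both replicate 3 libraries and 0 to 3 with 1 library left out (3 without RIP replicate 2, where Shal passed too). Of all genes in this length test, 12.4% were called longer as tested and 4.14% with the replicate block. For the other length fits the share over all genes is not given here, so their counts cannot be read against it. The lowest expected counts among the channel genes were those of sei, Elk and KCNQ, with 188 to 379 in each input library.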
